A study of Mus musculus with 19 samples.

Results

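Activators of the circadian clock and factors that act with them were followed in mouse lung through 5 genes. Arntl (also called Bmal1), Clock and Npas2 form the activator. Rora and Nfil3 act on Arntl and on the clock-controlled genes, and Nfil3 is a repressor. The members were all probes whose RefSeq accession in the scanner files matched one of these symbols, and each gene had 1 probe. They were 5 of 20660 gene symbols on the array, and all 5 were among the 31089 probes with enough lung signal to be tested.

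The animals were adult male MutaTMMouse, a transgenic strain that carries a bacterial reporter gene for mutation assays, about 12 weeks of age and kept on a light and dark cycle. Olive oil was given by oral gavage on 28 consecutive days, alone in the control group (D0, 5 mice) or carrying the 8PAH mixture of polycyclic aromatic hydrocarbons at 15 (D1, 4 mice), 30 (D2, 5 mice) or 60 (D3, 4 mice) mg benzo[a]pyrene (BaP) equivalents per kg body weight per day. Lungs were taken 72 h after the last gavage, and the hour of the day at which each mouse was sampled is not given in the sources used here. Each of 19 Agilent arrays carried lung RNA in red (Cy5) and a reference RNA pooled from mouse cell lines in green (Cy3), so a value is a log2 ratio of lung over reference. Mouse 23 was kept in D2, where its label puts it, although its number lies among those of D1. The methods of the study also give D1 a larger and D2 a smaller group than the labels do, as counting this mouse in D1 would. With it counted in D1, Arntl changed by -0.59 at D1, which was not called, and by -1.50 at D2, which was.

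In the molecular clock, ARNTL pairs with CLOCK or with its relative NPAS2, and the pair binds E-box elements and switches on the Period, Cryptochrome and Rev-erb genes together with output factors such as Dbp. The Period and Cryptochrome proteins then inhibit the activator. The Rev-erb proteins repress Arntl and Nfil3 through ROR response elements, at which RORA activates. NFIL3 (E4BP4) represses genes through D-box elements, at which DBP, TEF and HLF activate. In lung the clock is known to run in epithelial cells and in leukocytes.

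The stretches around the RefSeq starts of Arntl and Nfil3 that hold the ROR core TAGGTCA are shown first, since these were the 2 members that changed. The capitals mark the core or its reverse complement, as read 5′ to 3′ on the strand of the gene:
Arntl, chr7:113207531-113207557, plus strand: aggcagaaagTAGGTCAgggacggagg
Nfil3, chr13:52981035-52981061, minus strand: cgctcggaacTGACCTActaacacaca
The sequences are from RefSeq windows of GRCm38.p6 that run from 250 bases before to 50 bases after a start, and all 5 members had at least 1 window. The Arntl match began at base 31 after the downstream start of that gene. The Nfil3 match lay on the opposite strand, in the 12 bases before the start.

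Both strands of each window were searched for 6 short motifs. TAGGTCA was found in the windows of Arntl and Nfil3 and in none of Clock, Npas2 or Rora, and 2.97% of 27025 genes held it. Its shorter part AGGTCA was also present in a Clock window and in 18.1% of genes. The E-box CACGTG (8.09% of genes) and the D-box letters TTATGTAA (1.11%) and TTACGTAA (0.126%) were in no window of a member. GCGTG, the core letters of the element bound by the aryl hydrocarbon receptor, was in windows of Clock, Npas2 and Rora and in 35.2% of genes. A match of letters is a description of the window and no measurement of binding.

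Between 54.5% and 64.7% of the spots of an array were well above background in red and between 47.0% and 61.6% in green, with no saturated spot. The 19 arrays lay on 3 slides, each of which held all 4 groups, and the place of an array on its slide went with dose, so these cannot be told apart. Surfactant and club cell genes stood far above the reference in every mouse. The list mean of 5 alveolar type 2 markers was between 5.02 and 5.88 on the log2 ratio scale. The arrays measured whole lung, in which fewer cells of a type and less RNA per cell cannot be told apart.

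**Figure D1:**
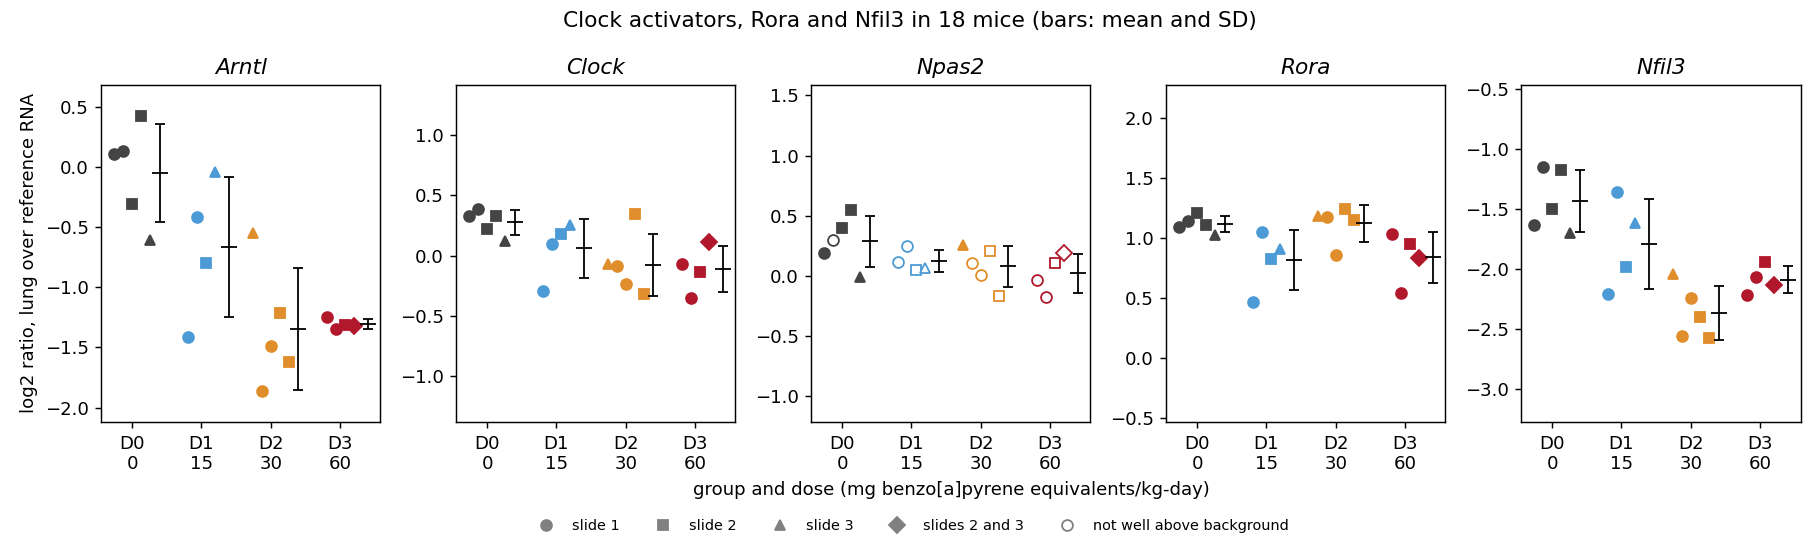
Log2 ratio of lung over reference RNA for each of 18 mice (vertical axes of equal span) by group and dose in mg BaP equivalents per kg per day, with symbols for the slide, open symbols where red was not well above background, and bars for mean and SD. Arntl and Nfil3 lie lower at D2 and D3 than at D0, the 4 Arntl values of D3 lie between -1.35 and -1.25, and Npas2 is mostly open.

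Arntl and Nfil3 were lower after exposure, Clock and Rora were not called, and Npas2 was mostly not well above background. The call needed a limma p, adjusted by Benjamini-Hochberg, that did not exceed 0.05, together with a 1.5-fold change or more. At D1 no member was called, against 1.06% of all probes tested, while Arntl, Rora and Nfil3 had an unadjusted p under 0.05 by the same limma fit, as did 19.7% of all probes. At D2 and at D3, 2 of 5 members were called lower, Arntl and Nfil3, where 0.19% of all probes were called lower at D2 and 1.22% at D3. At D3 the 4 members detected in every mouse (all but Npas2) had an unadjusted p under 0.05, as did 26.2% of all probes. The median change of these 4 was -0.33, -0.64 and -0.52 on the log2 scale at D1, D2 and D3, and that of all probes was 0.00661, -0.00357 and -0.00167. The values at D1 were not stable. Their median was -0.20 without D1 mouse 21, with Arntl at -0.37, Clock at -0.0988, Rora at -0.18 and Nfil3 at -0.22, and it was -0.0471 when each array was centred on its median in place of loess. Under that centring the medians at D2 and D3 were -0.43 and -0.37, and the median of all probes was itself 0.17, 0.12 and 0.06 at D1, D2 and D3.

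Arntl (NM_007489) encodes the subunit of the activator that CLOCK and NPAS2 share as partner. Its log2 ratio in the 5 D0 mice was 0.11, 0.13, -0.31, 0.42 and -0.60. The 4 D1 mice gave -1.41, -0.41, -0.80 and -0.05. The D1 mice ranged from near the vehicle mean to the level of the higher doses, and the groups overlapped.

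The 5 D2 mice gave -0.55, -1.86, -1.49, -1.22 and -1.62 for Arntl. The 4 D3 mice gave -1.25, -1.35, -1.32 and -1.32. Every D3 mouse was lower than every D0 mouse, whereas D2 mouse 23, at -0.55, was higher than D0 mouse 5, at -0.60. The spread was widest at D1 (SD 0.58, n = 4) and narrowest at D3 (SD 0.04, n = 4), with 0.40 in D0 (n = 5) and 0.50 in D2 (n = 5).

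Against D0, Arntl fell by 0.62 on the log2 scale at D1 (SE 0.26, limma adjusted p = 0.186), which was not called. At D2 it fell by 1.30 (SE 0.24, limma adjusted p = 0.00718), or 2.46-fold, in 5 of 5 mice relative to the vehicle mean. At D3 it fell by 1.26 (SE 0.26, limma adjusted p = 0.0038), or 2.39-fold, in 4 of 4 mice. These changes correspond to 40.7% and 41.9% of the vehicle level.

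The Arntl probe was well above background in both channels in all 18 mice. Its normalized red signal averaged 8.75 in D0, 8.40 in D1, 7.63 in D2 and 7.70 in D3 on the log2 scale. The green signal, which comes from the same reference RNA on every array, averaged 8.80 in D0 and between 8.97 and 9.06 in the dosed groups. With the red channel alone the change was -1.26 at D2 and -1.18 at D3, and both stayed called. When each array was centred on its median in place of loess, the change was -1.06 and -1.11 and neither was called (limma adjusted p = 0.764 and 0.499), where 0.00643% and 0.0547% of all probes were called lower.

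Nfil3 (NM_017373), the D-box repressor that is also needed for the development of natural killer cells, moved in the same direction as Arntl. The D0 mice gave log2 ratios of -1.63, -1.15, -1.50, -1.17 and -1.70. The D1 mice gave -2.21, -1.36, -1.98 and -1.62. The values of D1 lay across the range of D0 and extended lower.

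For Nfil3, the D2 mice gave -2.04, -2.56, -2.24, -2.40 and -2.57, and the D3 mice gave -2.21, -2.06, -1.95 and -2.13. Neither D2 nor D3 overlapped with D0. The means were -1.43 ± 0.26 (SD, n = 5) in D0, -1.79 ± 0.38 (SD, n = 4) in D1, -2.36 ± 0.22 (SD, n = 5) in D2 and -2.09 ± 0.11 (SD, n = 4) in D3. Nfil3 fell by 0.93 at D2 (SE 0.15, limma adjusted p = 0.00181), or 1.91-fold, and by 0.66 at D3 (SE 0.16, limma adjusted p = 0.0100), or 1.58-fold. The change of -0.36 at D1 was not called (limma adjusted p = 0.205). Under median centring the changes at D2 and D3 were -0.69 and -0.46 and were not called (limma adjusted p = 0.928 and 0.849).

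**Figure D2:**
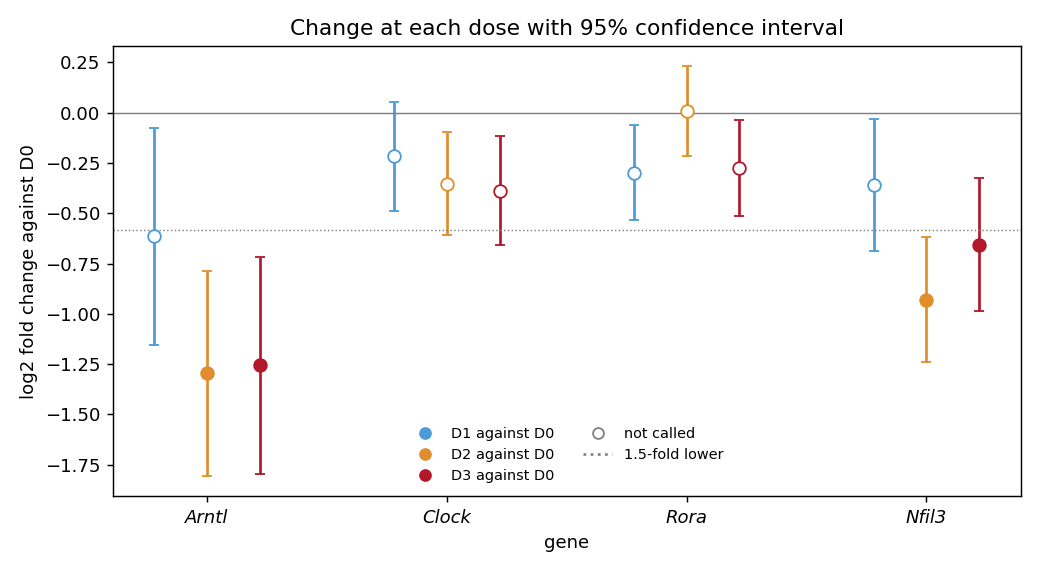
Log2 fold change against D0 (vertical axis) of each gene at D1, D2 and D3 with the 95% confidence interval of the limma fit, filled where called, and a dotted line at 1.5-fold lower, without Npas2. The intervals of Arntl at D2 (-1.81 to -0.79) and D3 (-1.80 to -0.72) lie wholly lower than the 1.5-fold line.

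Clock (NM_007715) encodes the usual partner of ARNTL. Its log2 ratio was 0.33, 0.39, 0.22, 0.33 and 0.12 in the D0 mice and -0.07, -0.35, -0.14 and 0.11 in the D3 mice, so the highest D3 mouse was just lower than the lowest D0 mouse. In D1 it ranged from -0.30 to 0.25 and in D2 from -0.32 to 0.34. The change was -0.22, -0.35 and -0.39 at D1, D2 and D3 (SE 0.13, 0.12 and 0.13), and -0.00336, -0.17 and -0.29 under median centring. Relative to the median of all probes under that centring it was -0.17, -0.30 and -0.35. With loess none was called, with a limma adjusted p of 0.374, 0.155 and 0.0568, and the interval at D3, -0.66 to -0.12, still included a 1.5-fold decrease. Clock was 1 of 3 members with no overlap between D3 and D0, with Arntl and Nfil3, where 7.14% of all probes lay lower without overlap. At D2 this held for Nfil3 only, against 1.6% of all probes.

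Npas2 (NM_008719), which can stand in for CLOCK, was at the edge of detection in these lungs. Its red signal was well above background in 4 of 5 D0 mice, in 0 of 4 D1 mice, in 1 of 5 D2 mice and in 0 of 4 D3 mice, and its green signal in none, so that it passed the filter through D0 alone. The median red signals ranged from 85.5 to 125 over the 18 mice. The log2 ratio was 0.19, 0.30, 0.40, 0.55 and -0.01 in the D0 mice and 0.26, 0.10, 0.00, 0.21 and -0.17 in the D2 mice. No change is given for Npas2, since few dosed mice had a signal well above background. The normalized red signal averaged 6.44 in D0, 6.30 in D1, 6.28 in D2 and 6.25 in D3 on the log2 scale.

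Rora (NM_013646) encodes the nuclear receptor that activates at ROR response elements. Its log2 ratio was 1.09, 1.14, 1.20, 1.11 and 1.02 in the D0 mice. The D1 mice gave 0.47, 1.05, 0.83 and 0.91, the D2 mice 1.18, 1.17, 0.86, 1.24 and 1.15, and the D3 mice 1.03, 0.54, 0.95 and 0.83. D2 lay at the level of D0, and D1 and D3 each held 1 low mouse (0.47 and 0.54) while their other mice lay between 0.83 and 1.05.

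The change of Rora was -0.30 at D1 (SE 0.11, limma adjusted p = 0.142), 0.01 at D2 (SE 0.11, limma adjusted p = 0.99) and -0.28 at D3 (SE 0.11, limma adjusted p = 0.124), and none was called. The value at D3 was -0.18 without D3 mouse 32 and -0.12 under median centring. The interval at D2 was -0.22 to 0.23, which excludes a 1.5-fold change in either direction. The value at D2 changed sign under several alternatives, all within that interval.

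Of the relatives of the members, Rorb, a ROR receptor known mainly from the nervous system, was not called at any dose, with -0.31, -0.35 and -0.32. The probe of Arntl2, a paralog of Arntl, gave no signal well above background in the 18 mice and was left untested.

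Between dosed groups no member was called by limma. The share of all probes called was 0% for D2 against D1, 0.106% for D3 against D2 and 0.145% for D3 against D1, and 3, 1 and 1 of the 4 members detected in every mouse had an unadjusted p under 0.05, where 9.79%, 11.7% and 7.65% of all probes did. Arntl differed by 0.04 between D3 and D2 (interval -0.50 to 0.58), and Nfil3 was higher at D3 than at D2 by 0.27 (interval -0.05 to 0.60). In a linear trend over dose, Arntl fell by a fitted 1.29 from D0 to D3 (limma adjusted p = 0.0122) and Nfil3 by 0.71 (limma adjusted p = 0.0476), and 2 of 5 members were called lower where 0.573% of all probes were. The Nfil3 trend call was lost in 11 of 18 fits that left out 1 mouse, namely D0 mouse 1, 2, 3, 4 or 5, D1 mouse 25, D2 mouse 23 or 28, or D3 mouse 31, 32 or 35, with a limma adjusted p of 0.0359 to 0.102 over the 18 fits.

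Each slide held all 4 groups, so the differences from D0 could be taken within a slide. For Arntl they were -1.03, -1.79 and -1.41 at D1, D2 and D3 on slide 1 and -0.85, -1.48 and -1.38 on slide 2. On slide 3, which held 1 array per group, they were 0.56, 0.06 and -0.70. The fall at D1 and D2 was therefore seen on slides 1 and 2 and not on slide 3, where D0 mouse 5 had the lowest Arntl of its group and D1 mouse 25 and D2 mouse 23 the highest of theirs. Mouse 23 was the only D2 array of slide 3, and its number lies among those of D1. The D3 array of slide 3 was the second of mouse 35, whose first lay on slide 2.

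For Nfil3 the differences at D1, D2 and D3 were -0.39, -1.01 and -0.75 on slide 1, -0.64, -1.15 and -0.71 on slide 2, and 0.08, -0.34 and -0.41 on slide 3. Nfil3 was thus lower at D2 and D3 on all 3 slides. On slide 3 this rests on mouse 23 at D2 and on the second array of mouse 35 at D3. Without the arrays of slide 3, an alternative chosen after the values were seen, Arntl at D1 became called, with a change of -0.96 (limma adjusted p = 0.0289). With slide as a block the change of Arntl was -1.30 at D2 and -1.23 at D3, both called.

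**Figure D3:**
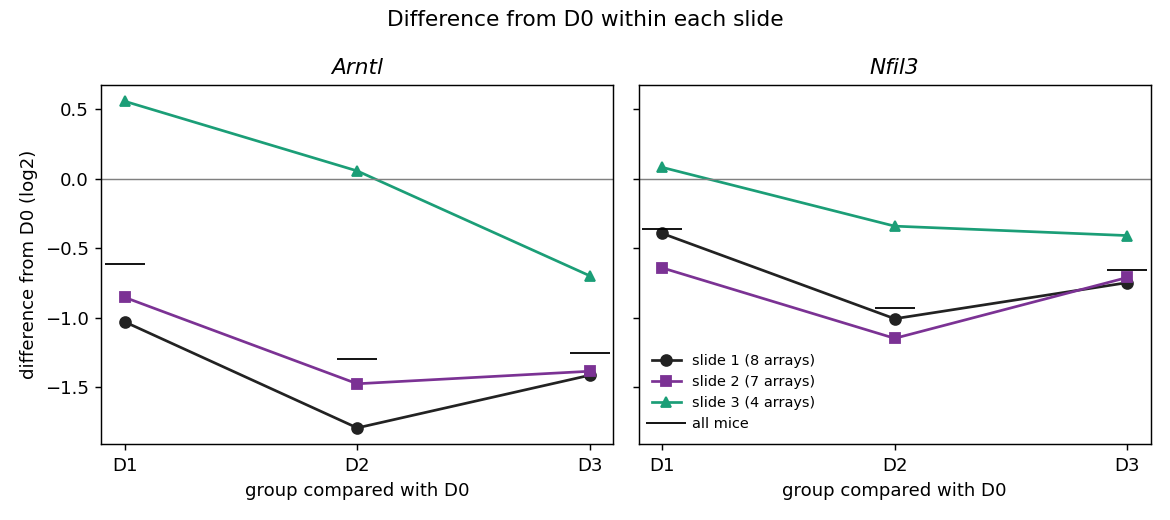
Difference from D0 in log2 units (vertical axis) of Arntl and Nfil3 at D1, D2 and D3 within each slide, with 1 line per slide and black dashes for the limma estimate over all mice. Slides 1 and 2 lie together, and slide 3, with 1 array per group, lies higher for both genes. The D2 array of slide 3 is mouse 23, and the D3 array there is the second of mouse 35, whose first is on slide 2.

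The mice of 1 dose group also differed among themselves in a shared way, and the deviations of Arntl from its group mean were compared with those of 16 other clock genes over 18 mice. Mice of one group with higher Arntl had higher Nfil3 (Pearson r = 0.79, permutation adjusted p = 0.0127, Spearman rho = 0.80, permutation adjusted p = 0.0159). They had lower Dbp (r = -0.82, permutation adjusted p = 0.00032, rho = -0.86, permutation adjusted p = 0.0072). They also had lower Tef (r = -0.78, permutation adjusted p = 0.00328, rho = -0.66, permutation adjusted p = 0.0159) and lower Nr1d2 (r = -0.78, permutation adjusted p = 0.00485, rho = -0.72, permutation adjusted p = 0.0223). Dbp and Tef are activators at D-boxes, and Nr1d2 encodes REV-ERB beta, a repressor of Arntl.

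For Clock r was 0.55 (permutation adjusted p = 0.133) and rho was 0.63 (permutation adjusted p = 0.0346), so the call depended on the measure. The other 11 genes did not pass by either measure, and r was 0.45 with Rora (permutation adjusted p = 0.136). Npas2, 1 of these 11, was mostly not well above background. Cry1 was not tested for lack of signal. The genes of 1 array share its normalization and its reference signal.

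Over all groups, the mice whose log2 ratio lay farthest from the median of Arntl were D0 mouse 4 and D0 mouse 2. Their deviations from the D0 mean were 0.48 and 0.18. Those of D2 mouse 23 (0.80), D1 mouse 21 (-0.74) and D1 mouse 25 (0.62) from their group means were larger in size, and these mice stayed in. Whether a few mice carried the correlations was therefore not tested. Without D0 mouse 4 and D0 mouse 2, r was 0.76 with Nfil3, -0.79 with Dbp, -0.75 with Tef and -0.76 with Nr1d2. With slide means also removed, r was 0.80, -0.92, -0.75 and -0.81 in the same order. When each array was centred on its median in place of loess, r became 0.92 with Nfil3 but 0.14 with Dbp, 0.31 with Tef and 0.35 with Nr1d2, so the inverse relations were not found under that scaling. The signals of the red channel alone gave 0.78, -0.82, -0.71 and -0.74.

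**Figure D4:**
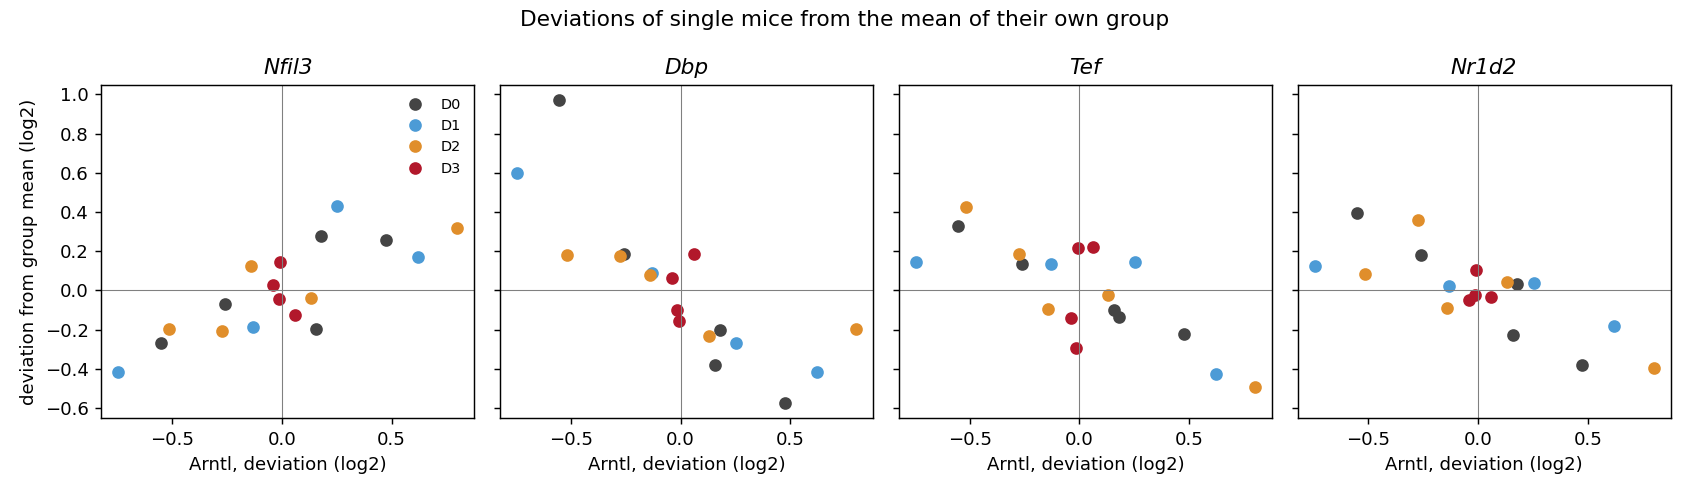
Deviation of each of 18 mice from the mean of its own group in log2 units, with Arntl on the horizontal axis and Nfil3, Dbp, Tef or Nr1d2 on the vertical axis, coloured by group. Nfil3 rises with Arntl (r = 0.79) and Dbp, Tef and Nr1d2 fall (r = -0.82, -0.78 and -0.78).

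Several genes that the activator is known to drive were higher in the dosed groups. Of 8 repressors of the clock, 7 were tested, and 1 was called higher at D1, 3 at D2 and 3 at D3, where 0.592%, 0.434% and 1.2% of all probes were called higher. Those at D2 and D3 were Per2, Per3 and Nr1d2, with changes at D3 of 0.88, 0.64 and 0.77 (limma adjusted p = 0.00572, 0.0142 and 0.0018), and Nr1d2 was also called at D1. The median change of the 7 was 0.38, 0.46 and 0.42.

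Of 8 output genes, 1 was called higher at D1, 6 at D2 and 4 at D3, where 0.592%, 0.434% and 1.2% of all probes were, and none was called lower. Dbp was called at each dose, and Tef, Hlf and Wee1 at D2 and D3. Bhlhe40, a repressor at E-boxes, and Usp2 were called at D2 alone, with 0.59 and 0.73 (limma adjusted p = 0.0128 and 0.0284). At D3 they had 0.50 and 0.53 (limma adjusted p = 0.0143 and 0.0623), so Bhlhe40 missed the call there by the 1.5-fold threshold only. In these lungs, therefore, Arntl and Nfil3 were lower in the same groups in which the D-box activators Dbp, Tef and Hlf were higher. These comparisons share their vehicle mice.

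Of 10 kinases, ligases and cofactors that act on clock proteins, 9 were tested and 0 were called at any dose by limma, with 4, 3 and 3 at an unadjusted p under 0.05 at D1, D2 and D3, where 19.7%, 14.7% and 26.2% of all probes stood. Crebbp, a histone acetyltransferase that serves as cofactor of the activator, had a change of -0.40 at D3 with a limma adjusted p of 0.00389, under the 1.5-fold threshold. Of 12 further genes of the bHLH-PAS family, to which Arntl, Clock and Npas2 belong, 8 were tested. The 1 called, higher at each dose (0.592%, 0.434% and 1.2% of all probes), was Ahrr, the repressor of the aryl hydrocarbon receptor. Its red signal was well above background in 1 of 5 D0 mice and in every dosed mouse, so no size of the difference is given. The receptor Ahr and its partner Arnt were not called.

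**Figure D5:**
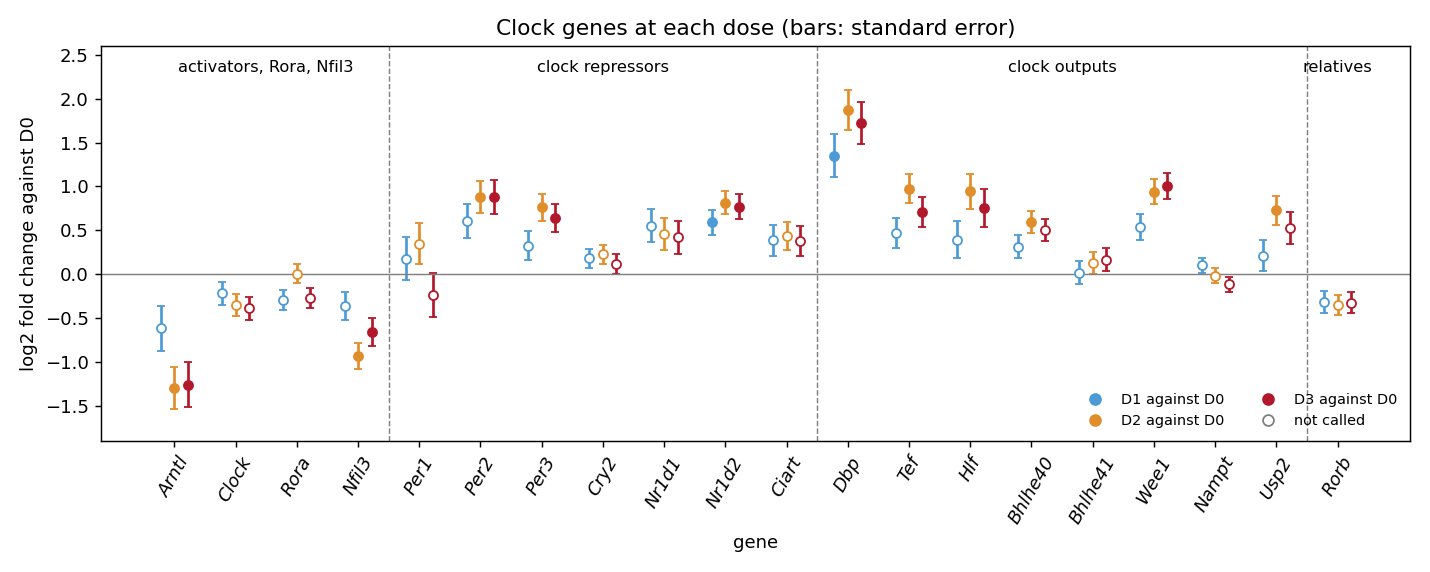
Log2 fold change against D0 (vertical axis) with its standard error for the tested activators, Rora and Nfil3 (without Npas2), repressors, outputs and the relative Rorb at D1, D2 and D3, filled where called. Arntl and Nfil3 lie lower than 0 with filled points at D2 and D3, and Dbp, at 1.35, 1.87 and 1.72, lies highest.

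Over all 18 mice, with the dose effect left in, the gene whose log2 ratios were most like those of Arntl was Nfil3 (Pearson r = 0.91), followed by Spon2, Gprin3, Heatr1 and Adm (r from 0.89 to 0.86). The most opposite were Dbp, Bhlhe41, Tef, Nr1d2 and Mthfd1l (r from -0.92 to -0.89). Seen from Nfil3, the most alike gene was Arntl, and Dbp was among the 5 most opposite (r = -0.88). These were picked from all probes tested and are a description. With group means removed, the gene most like Arntl was Rasl11a (r = 0.91), and Nfil3 was the fifth. The most opposite was Bhlhe41 (r = -0.91) by one of its 2 tested probes, while the brighter probe gave -0.55.

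For Clock and Rora the lists of most alike genes held none of the clock genes named here. The gene most like Clock was Nectin1 (r = 0.84) and the one most like Rora was Hmgb1 (r = 0.86). With the dose effect left in, the 2 members that changed were thus each other's closest match, and neither Clock nor Rora had another member among its 5 most alike genes.

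Some markers of leukocytes were called in the same comparisons. Of 5 natural killer and cytotoxic markers, 3 (Nkg7, Gzma and Prf1) were well above background in every mouse. Of these 3, 1 was called lower at D1 (Gzma), 1 at D2 (Gzma) and 2 at D3 (Gzma and Prf1), where 0.463%, 0.19% and 1.22% of all probes were called lower. At each dose 2 of the 3 had an unadjusted p under 0.05, where 19.7%, 14.7% and 26.2% of all probes did. At D1, D2 and D3, Gzma changed by -1.60, -2.13 and -3.07 and Prf1 by -0.29, -0.57 and -0.66. Nkg7, which was not called, changed by -0.40, -0.34 and -0.40. The summed red signal of all 5, with Ncr1 and Klrb1c included, ranged from 11.9 to 13.6 on the log2 scale in D0, 11.0 to 12.2 in D1, 10.9 to 11.7 in D2 and 10.68 to 11.4 in D3. Signals were summed before the log, so the brightest genes weigh most. The defining marker Ncr1 was well above background in 5 of 5 D0 mice, 3 of 4 D1 mice, 3 of 5 D2 mice and 1 of 4 D3 mice, so no change is given for it. The part of these cells in the lower Nfil3 was not tested.

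All 4 neutrophil markers were called higher at D3, where 1.2% of all probes were, and at D1 and D2 none was called by limma, where 2 and 1 had an unadjusted p under 0.05 (19.7% and 14.7% of all probes), with a summed red signal of 13.3 to 14.3 in D0 and 15.0 to 16.9 in D3. Of 4 alveolar macrophage markers, Siglecf alone was called, lower at D2 (-1.05), where 0.19% of all probes were called lower. An unadjusted p under 0.05 was held by 1, 3 and 4 at D1, D2 and D3 (19.7%, 14.7% and 26.2% of all probes). Chil3 had changes of -0.44, -1.39 and -1.03 and Ear2 of -0.46, -0.78 and -0.69, whereas Marco had 0.71, 0.37 and 0.94. Of 3 markers of type 2 innate lymphoid cells, in which Rora is known to act, Il1rl1 was called lower at D3 (-0.80), where 1.22% of all probes were. Il7r had a change of 0.57 at D3 (limma adjusted p = 0.0367, under 1.5-fold) and Gata3 of -0.01. Of 4 endothelial markers, Pecam1 was called higher at D1 (0.67, limma adjusted p = 0.0137) and D3 (0.66, limma adjusted p = 0.00674), where 0.592% and 1.2% of all probes were. Cdh5, Kdr and Cldn5 were not called. None of the 5 T cell markers was called by limma at any dose, with 0, 3 and 4 at an unadjusted p under 0.05 at D1, D2 and D3 (19.7%, 14.7% and 26.2% of all probes). Of the tested markers of alveolar type 2 (5), alveolar type 1 (4), club (2) and ciliated cells (3), none was called at any dose by limma. At an unadjusted p under 0.05 stood 1 type 2 marker at each dose and 1, 0 and 2 type 1 markers, and 0 of the club and ciliated markers. The share of all probes was 19.7%, 14.7% and 26.2% at D1, D2 and D3. None of the 4 fibroblast, 3 tested B cell and 4 cardiac muscle markers was called by limma either. At an unadjusted p under 0.05 stood 1 cardiac marker at D1 (19.7% of all probes) and 1 B cell marker at D2 (14.7%). The cardiac list, whose genes are also known from muscle around the pulmonary veins of mice, differed widely among dosed mice. Its mean log2 ratio ranged from 2.48 to 3.16 in D0, 0.25 to 4.89 in D1, 0.20 to 3.99 in D2 and 0.43 to 4.27 in D3. The part of these cell types in the changes of Arntl or Nfil3 was not tested.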

How the data were processed

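Lung RNA of 18 mice was hybridised in red (Cy5) against a common reference in green (Cy3) on 19 arrays, and the pair of arrays of mouse 35 was averaged. The authors deposited scanner files with intensity values per spot (median pixel signals, not normalized, from Feature Extraction 11.0.1.1 on a G2505C scanner per the file headers, and a second, background- and dye-corrected set) and a table of log2 ratios they had normalized. Ratios computed here correlated with that table at r = 0.995 to 0.998 per array.

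Spots that were controls or carried an outlier mark were removed. Red over green was normalized by loess (span 0.3) on median signals with no background subtracted. Probes (55681, of which 55540 had a spot in every mouse) were named by RefSeq accession through a gene table of GRCm38.p6, where 21465 of 22765 accessions matched. A probe counted as detected in a mouse where the scanner software marked at least as many of its red spots well above background as not, and was tested if detected in at least 4 mice of 1 group. The test was limma 3.58.1 (R 4.3.3) fitted over all 4 groups and 31089 probes, with 1 spread, in place of MAANOVA, which was not installed. The fit was tested on simulated data. The number of arrays limits the precision. Within-group correlations used 100000 permutations of mice within groups.

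Named genes were the members, fixed lists of clock genes where called or where a result turned on them, and the 5 genes most and least like each member. The members and lists were chosen with earlier results of these data known. Alternatives were median centring, normexp, the processed signals, the red channel, the deposited table, other filters, slide as a block, mouse 23 left out or in D1, single arrays of mouse 35, only the groups compared, and each mouse left out. The labels give mice as separate animals. A result on 1 further gene of the lists is not reported here.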

Additional observations from a re-analysis of the deposited data

Results flagged for a closer look

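Among the 20 sets of values formed by 5 genes in 4 groups, 1 held a mouse far from the others. For Rora, D2 mouse 28 had a log2 ratio of 0.86, while the other 4 mice of D2 lay between 1.15 and 1.24, and its gap to the nearest mouse was 0.77 of the range of the group. About 1 in 20 groups is marked in this way by chance. Without this mouse the change of Rora at D2 was 0.07.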

How the results depend on the processing

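Arntl and Nfil3 stayed lower than in D0 at D2 and D3 under every alternative run, and both stayed called there except under median centring of each array in place of loess, which called 0 members at D2, at D3 and in the trend, where 0.00643%, 0.0547% and 0.0289% of all probes were called lower. Under that scaling the median of all probes was 0.17 at D1 and 0.12 at D2, against 0.00661 and -0.00357 with loess. Arntl then had -1.06 at D2 and -1.11 at D3 (limma adjusted p = 0.764 and 0.499), or -1.18 and -1.17 relative to the median of all probes, and Nfil3 had -0.69 and -0.46. The cause was not tested. Leaving out 1 mouse gave 2 calls at D2 and 2 at D3 in each of 18 fits, with Arntl between -1.50 and -1.17 at D2 and between -1.39 and -1.14 at D3.

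The trend count of 2 became 1, through Nfil3, with the deposited table, no filter, the processed signals, the red channel alone, mouse 23 left out or in D1, the second array of mouse 35 alone or the arrays of slide 3 left out, and it was 1 to 2 over the fits without 1 mouse. Without the arrays of slide 3, which was chosen after seeing the data, 1 member (Arntl, -0.96) was called at D1. The within-group correlations passed for 4 genes (Nfil3, Dbp, Tef and Nr1d2), and for 7 genes, these 4 included, with the red channel alone. Without the 2 mice farthest from the median of Arntl over all groups, these 4 and Bhlhe41 passed. Those 2 mice did not have the largest deviations from their group mean. Under median centring 5 passed, all positive (Clock, Rora, Nfil3, Cry2 and Bhlhe40), of which 1 was among the 4. Median centring turned the within-group r of Arntl to 0.14 with Dbp, 0.31 with Tef and 0.35 with Nr1d2.

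Sign changes of uncalled values lay near 0. Rora at D2 was -0.0124 with the deposited table, -0.00952 with mouse 23 left out or in D1, -0.0285 with the red channel alone, -0.0322 without slide 3, and -0.0237 to 0.0721 over the fits without 1 mouse. Rora at D3 against D1 was -0.00737 with the first array of mouse 35 alone, -0.0843 under median centring, -0.0511 with mouse 23 in D1, -0.0413 with the processed signals, -0.0339 with the red channel alone and -0.0926 to 0.121 without 1 mouse. At D3 against D2, Arntl was -0.0458 under median centring and -0.0895 to 0.240 without 1 mouse, and Clock was 0.0148 with the red channel alone and -0.109 to 0.0689 without 1 mouse. Clock at D3 passed the adjusted p threshold alone with only the groups compared (0.0265), the processed signals (0.0274), normexp (0.0495) and the deposited table (0.0482), and in 3 of 18 fits without 1 mouse (D1 mouse 21, D2 mouse 29 or D3 mouse 35; 0.0270 to 0.176 over the 18), under 1.5-fold in each. So did Clock at D2 without D2 mouse 29 (0.0457), Clock in the trend without D1 mouse 21 (0.0353) and Rora at D3 with the processed signals (0.0388) and the red channel alone (0.0409), also under 1.5-fold. The groups share no mouse numbers to pair by. Slide, which held all 4 groups, was fitted as a block and left the count of members called as it was in every comparison. Signal over background limits Npas2.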
